A study of Danio rerio with 6 samples.

Results

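The DNAJ family, also called Hsp40, comprises the co-chaperones that deliver client proteins to Hsp70. Members were taken as the genes whose symbol begins with dnaj and which had 10 or more counts in at least 3 of the 6 libraries. Of the 31962 genes in the files, 51 carry such a symbol and 46 met the count rule, namely 6 of class A, 14 of class B and 26 of class C. Any family gene under another symbol was left out. The libraries are polyadenylated RNA from red macrophages sorted by flow cytometry out of zebrafish larvae, 3 of the homozygous cxcr3.2-/- genotype (the mutant) and 3 of cxcr3.2+/+ (the wild type). Both genotypes carry the mpeg1:mCherryF reporter, so that cells were selected by the activity of the macrophage promoter mpeg1. Each library was made from its own pool of 150 to 200 whole larvae, whose age the labels give as 6 days after fertilisation in one place and 5 days in another. Gene counts summed to between 6239470 and 9607009 per library, and 16499 genes were tested.

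DNAJ proteins share the J domain, a helical hairpin with a histidine, proline and aspartate motif that stimulates ATP hydrolysis by Hsp70 and so locks the client onto it. Class A proteins add a glycine and phenylalanine rich stretch and a zinc-binding region, class B proteins have the stretch without the zinc-binding region, and class C proteins have in common the J domain alone and place Hsp70 at particular sites such as mitochondria, the endoplasmic reticulum or clathrin coats. Some class A and B genes are known targets of heat shock factor, and most others are expressed without stress. Here levels are CPM, counts divided by library size after scaling with trimmed means of M values (TMM), given with the SD over 3 libraries. Fold changes are mutant over wild type on the log2 scale, fitted with edgeR's quasi-likelihood test across all genes. A gene is called where its Benjamini-Hochberg adjusted p is below 0.05.

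The sorted RNA carried macrophage transcripts in every library, and transcripts of other cells beside them. The 20 macrophage markers summed to between 9471 and 9853 CPM in mutant libraries and between 6133 and 7709 CPM in wild type libraries. Within that sum apoeb, an apolipoprotein gene, measured 4996 ± 482 CPM in mutant and 2415 ± 402 CPM in wild type macrophages, and the median log2 fold change of the 20 markers was -0.04, with 11 below 0. The 18 epidermal markers summed to between 4710 and 4910 CPM in mutant libraries and between 5628 and 6387 CPM in wild type libraries. Over all tested genes, edgeR called 0.885% lower and 0.309% higher, and DESeq2 2.84% and 2.81%. At an unadjusted p below 0.05 the shares were 7.17% and 7.04%. DESeq2 gave 6415 of the 16499 genes no adjusted p, so its shares among the genes it could call are higher. Of the macrophage markers 1 was called lower and 2 higher in the mutant, with 4 and 5 unadjusted, and 3 and 5 by DESeq2. Of the epidermal markers 0 were called, with 3 lower and 0 higher unadjusted, and 1 lower and 0 higher by DESeq2. Muscle markers reached 1657 CPM in mutant replicate 2, against 101 to 159 CPM in the other 5 libraries. Of 17 muscle markers 16 had a log2 fold change above 0, with a median of 2.25. By edgeR 0 were called, with 1 lower and 8 higher at an unadjusted p below 0.05. DESeq2 called 0 and gave 10 no adjusted p. None of the 4 lists of neutrophil, neural, erythrocyte and endothelial markers had a called member, with 0 to 1 lower and 0 to 2 higher at an unadjusted p below 0.05 per list, and 1 lower and 2 higher in the neural list by DESeq2. In such pools fewer cells of a type and less RNA per cell cannot be told apart, and the part these cells play in the DNAJ values was not tested.

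The summed level of the DNAJ family was lower in the mutant, and 3 genes made up nearly the whole of that difference. The 46 members held 0.218%, 0.205% and 0.215% of counts in mutant replicates 1, 2 and 3, against 0.354%, 0.567% and 0.417% in wild type replicates 1, 2 and 3. Of 45 tested members, 3 were called lower in the mutant and 0 higher, where 0.885% of all 16499 tested genes were called lower and 0.309% higher. At an unadjusted p below 0.05, 9 members were lower and 4 higher, beside 7.17% and 7.04% of all tested genes. The 9 include DNAJB4, which met the count rule through wild type libraries only, so its lower direction was built into its inclusion. They also include DNAJC12, which among mutant libraries reached 10 counts in replicate 1 alone. DESeq2 called 4 members lower and 0 higher, beside 2.84% and 2.81% of all tested genes, and gave 18 members no adjusted p. The members called by edgeR were dnaja, dnajb6a and dnajb1b, which are 1 gene of class A and 2 of class B. Their summed level was 669 ± 51.4 CPM in mutant and 3716 ± 1626 CPM in wild type macrophages. The other 43 members together had nearly the same level in both genotypes, 1275 ± 46.0 CPM in mutant and 1283 ± 52.9 CPM in wild type macrophages. An equal sum does not show that each of them was equal. Among the 42 of these that were tested, 6 were lower and 4 higher at an unadjusted p below 0.05. DNAJB4 and DNAJC12 are among the 6.

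**Figure D1:**
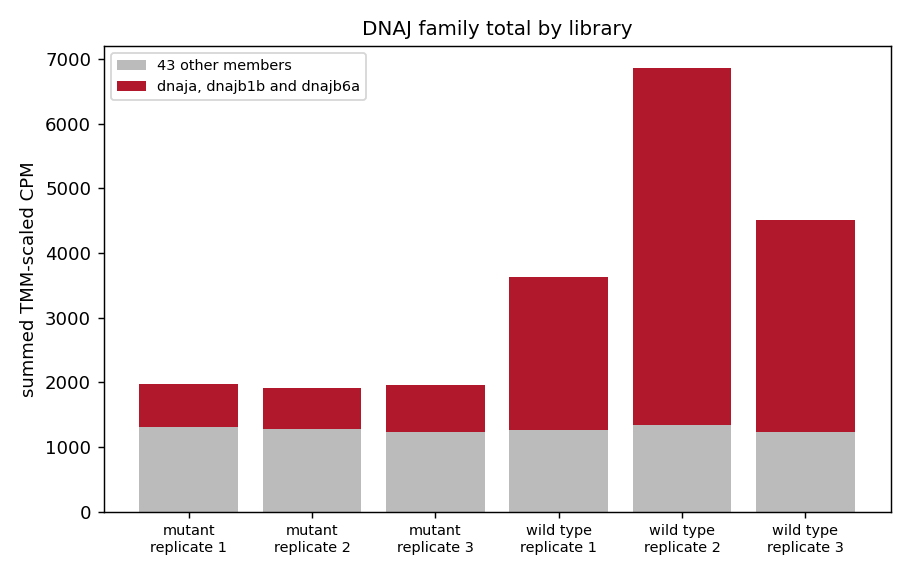
Summed TMM-scaled CPM (vertical axis) of dnaja, dnajb1b and dnajb6a (red) stacked on the other 43 DNAJ members (grey), 1 bar per library. The grey part lies between 1226 and 1317 CPM in mutant and between 1236 and 1340 CPM in wild type libraries, and the red part between 628 and 726 CPM in mutant and between 2354 and 5516 CPM in wild type libraries.

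The 3 called members made up 32.8% to 37.2% of the family's summed CPM in mutant libraries and 64.9% to 80.4% in wild type libraries. Most of this came from dnaja and dnajb1b, which without dnajb6a made up 32.0% to 35.9% in mutant and 62.5% to 78.4% in wild type libraries. Such shares are not per transcript length, so they do not rank the genes by abundance of molecules. The median log2 fold change of the 45 tested members was -0.16, beside -0.03 over all tested genes, with 26 members below 0 and 19 above, where 52.1% of all tested genes were below 0.

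Among class A genes, dnaja (ENSDARG00000051762) fell 9.81-fold in the mutant. It measured 171, 167 and 261 CPM in mutant replicates 1, 2 and 3, against 1268, 2797 and 1809 CPM in wild type replicates 1, 2 and 3. Every mutant library lay below every wild type library, and wild type replicate 2 was the highest. The log2 fold change was -3.29 (SE 0.31, 95% interval -3.99 to -2.60, adjusted p = 0.00312 in edgeR's quasi-likelihood test). The call was kept with each library left out in turn, with an adjusted p of at most 0.0303 over the 13 alternatives.

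The remaining class A genes were not called. The gene dnaja1, whose product is a general cytosolic partner of Hsp70, measured 91.6 ± 12.9 CPM in mutant and 103 ± 27.7 CPM in wild type macrophages, with a log2 fold change of -0.16 (95% interval -0.66 to 0.33), an interval that does not reach a 2-fold difference. DNAJA2 (ENSDARG00000104066), another general Hsp70 partner, was the uncalled class A gene with the most counts. It measured 278, 256 and 255 CPM in mutant replicates 1, 2 and 3, against 247, 232 and 218 CPM in wild type replicates 1, 2 and 3. The genotypes did not overlap, yet the log2 fold change was 0.18 (SE 0.13, adjusted p = 0.617). The second DNAJA2 gene (ENSDARG00000010745) had a log2 fold change of -0.36 (95% interval -0.97 to 0.25). DNAJA3, which acts in the mitochondrial matrix, had -0.22 (95% interval -0.66 to 0.22). The sixth, dnaja3b, was near the detection limit at 1.13 ± 0.74 CPM in mutant and 1.3 ± 0.53 CPM in wild type macrophages.

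Class B held the other called genes. The human protein DNAJB6 is known for keeping aggregation-prone proteins soluble, and its zebrafish counterpart dnajb6a (ENSDARG00000004680) fell 5.07-fold. Its level was 19.5, 15.8 and 26.1 CPM in mutant replicates 1, 2 and 3, against 88.9, 138 and 86.0 CPM in wild type replicates 1, 2 and 3. The groups did not overlap, and wild type replicate 2 again stood highest. The log2 fold change was -2.34 (SE 0.27, 95% interval -2.96 to -1.73, adjusted p = 0.00613, edgeR), and the adjusted p was at most 0.0407 over the 13 alternatives.

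The human protein DNAJB1 is the classical heat-inducible Hsp40, which drives the release of aggregates together with Hsp70 and Hsp110. Of its zebrafish counterparts, dnajb1b (ENSDARG00000041394) fell 3.69-fold. It measured 461, 445 and 440 CPM in mutant replicates 1, 2 and 3, against 997, 2581 and 1383 CPM in wild type replicates 1, 2 and 3. The mutant libraries had an SD of 11.2 CPM and the wild type libraries an SD of 826 CPM, with wild type replicate 2 the highest. The log2 fold change was -1.88 (SE 0.30, 95% interval -2.57 to -1.2, adjusted p = 0.0247, edgeR). This call was lost without mutant replicate 1 (adjusted p = 0.0872), mutant replicate 2 (0.113), mutant replicate 3 (0.111) or wild type replicate 3 (0.0816), while DESeq2 kept it (adjusted p = 2.25e-09). Without wild type replicate 2 the fold was smaller, 2.64, and the gene was still called (adjusted p = 0.0134).

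The spans of both called class B genes overlap those of other genes. In a RefSeq gene table of the assembly GRCz12tu, which is not the build of the counts and carries no strand, the span of dnajb1b overlaps that of adgre10, an adhesion receptor gene, and the span of dnajb6a overlaps that of trpa1a, an ion channel gene. Both of these overlapping genes were called lower as well. The level of adgre10 was 80.5 ± 7.36 CPM in mutant and 321 ± 126 CPM in wild type macrophages (log2 fold change -2.0, adjusted p = 0.00976, edgeR), a call lost without mutant replicate 2 (0.0694) or mutant replicate 3 (0.0603). For trpa1a it was 9.71 ± 4.33 CPM in mutant and 43.5 ± 5.53 CPM in wild type macrophages (log2 fold change -2.16, adjusted p = 0.0224, edgeR). That call was kept only without mutant replicate 3 (0.0300), and the adjusted p was 0.0597 to 0.118 without each of the other libraries. The sources used here do not say whether counting used strand, so reads of each pair cannot be told apart with certainty. No protein-coding gene overlapped dnaja in that table, but a long non-coding RNA gene did, for which no count was matched here.

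**Figure D2:**
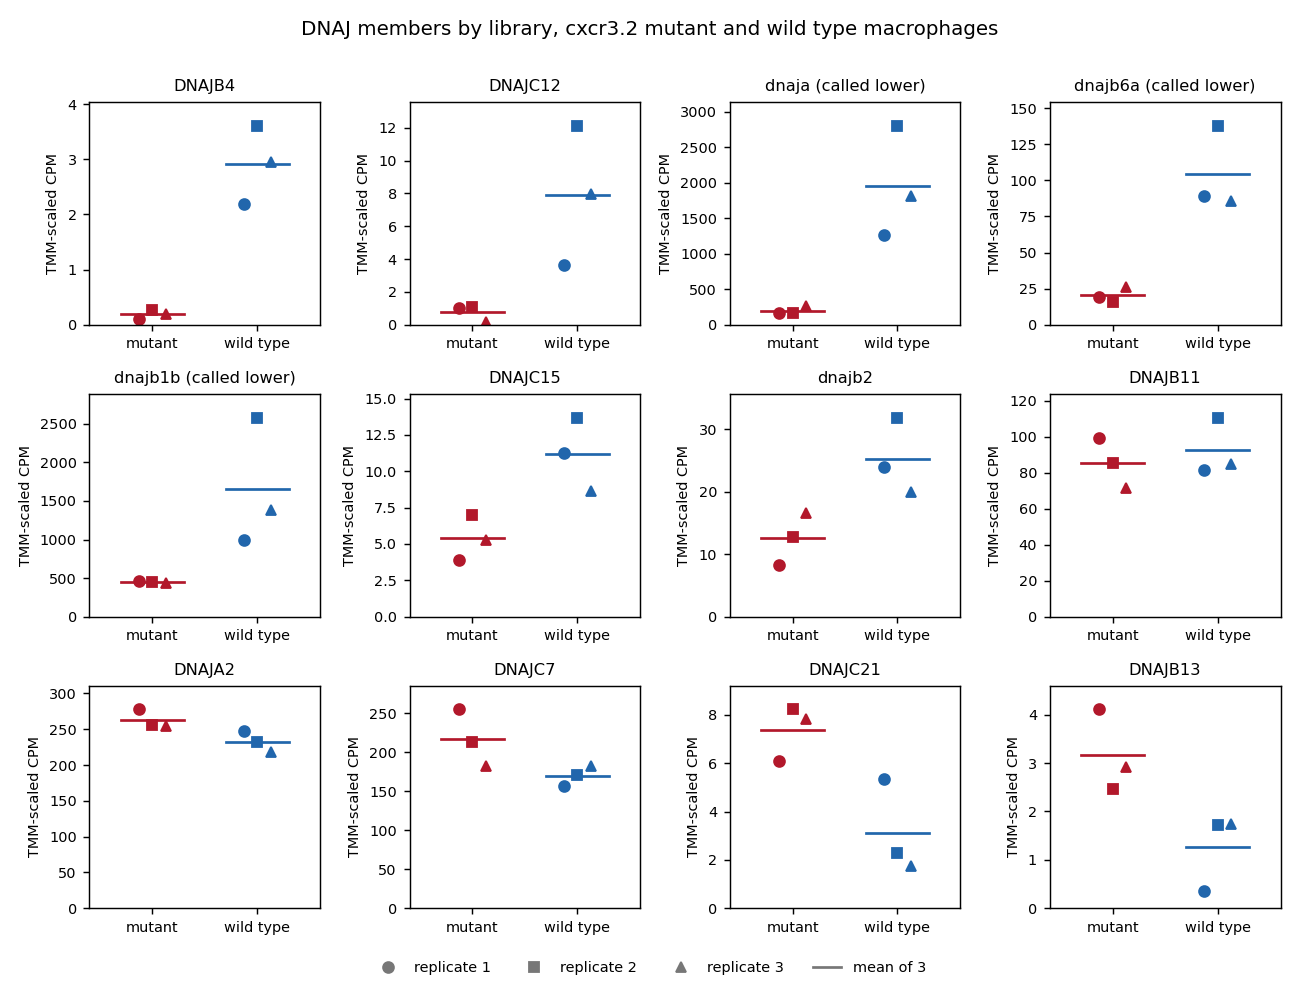
TMM-scaled CPM (vertical axes, from 0) of 12 DNAJ members in mutant (red) and wild type (blue) libraries, with the replicate given by the symbol and the mean of 3 libraries as a line. In dnaja, dnajb6a and dnajb1b, the 3 members called lower, each wild type point lies above each mutant point.

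Further class B genes measured lower in the mutant without being called. DNAJB4 (ENSDARG00000038978), whose human counterpart is a cytosolic heat-inducible co-chaperone, had 1, 2 and 2 counts in mutant replicates 1, 2 and 3, against 18, 25 and 17 counts in wild type replicates 1, 2 and 3. This gene met the count rule through wild type libraries only, so a difference was built into its inclusion. Summed over libraries, 5 mutant against 60 wild type counts, it was 15.9-fold lower after scaling. The exact binomial 95% interval for counting error was 6.47 to 50.9. It leaves out the spread between libraries and does not correct for how the gene was included. The edgeR fit gave DNAJB4 an adjusted p of 0.0562, and DESeq2 gave it no adjusted p.

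The paralog dnajb6b measured 22.4 ± 4.37 CPM in mutant and 43.7 ± 13 CPM in wild type macrophages. Its libraries did not overlap between genotypes, with a log2 fold change of -0.96 (SE 0.28, 95% interval -1.60 to -0.33). The adjusted p was 0.155 in edgeR and 0.0234 in DESeq2, which made it the only further member called by DESeq2. The gene dnajb2, whose human product hands clients to the proteasome, had 8.22, 12.8 and 16.6 CPM in mutant replicates 1, 2 and 3, against 24.0, 31.9 and 19.9 CPM in wild type replicates 1, 2 and 3. Here mutant replicate 3 came close to wild type replicate 3, and the adjusted p was 0.212 (log2 fold change -1.01, SE 0.33, edgeR).

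In contrast, dnajb1a was measured slightly higher in the mutant. Its level was 35.3, 41.4 and 44.2 CPM in mutant replicates 1, 2 and 3, against 25.8, 30.7 and 26.7 CPM in wild type replicates 1, 2 and 3. The libraries did not overlap, but the gene was not called (log2 fold change 0.54, SE 0.21, adjusted p = 0.286, edgeR). DNAJB13, a protein of motile cilia in humans, was rare, at 4.11, 2.47 and 2.93 CPM in mutant replicates 1, 2 and 3, against 0.36, 1.73 and 1.73 CPM in wild type replicates 1, 2 and 3. The mutant libraries lay above the wild type libraries without a call (log2 fold change 1.32, SE 0.73, adjusted p = 0.475, edgeR). DNAJB5 had 14, 0 and 0 counts in mutant replicates 1, 2 and 3, against 10, 21 and 8 counts in wild type replicates 1, 2 and 3, too few to place it.

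Related genes within the family were compared as the ratio of their levels inside each library. The 10 pairs, chosen after their values were seen, had symbols that are equal once a final a or b is left out. The pair of dnaja with dnaja1 was added by hand. In each pair the gene of lower log2 fold change was set first, so negative differences were largely built in. The log2 ratio was compared between genotypes in an exact two-sided permutation test, where 0.1 is the smallest p that 3 against 3 libraries allow. The ratio of dnajb1b to dnajb1a was 3.71, 3.43 and 3.31 (log2) in mutant replicates 1, 2 and 3, against 5.27, 6.39 and 5.70 in wild type replicates 1, 2 and 3. These values did not overlap and differed by -2.30 on average (permutation p = 0.1, adjusted over 10 pairs p = 0.2).

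For dnaja over dnaja1 the mean log2 ratio was 1.1 ± 0.18 in mutant and 4.21 ± 0.37 in wild type libraries, a difference of -3.11 (permutation p = 0.1). For dnajb6a over dnajb6b it was -0.14 ± 0.08 in mutant and 1.26 ± 0.21 in wild type libraries, a difference of -1.40 (permutation p = 0.1). The genotypes also did not overlap for the DNAJB9 pair and for dnajc5gb over dnajc5ga, and they overlapped for the other 5 of the 10 pairs. No pair can pass adjustment in a design of this size, and no share of other gene pairs was computed beside these. Reads of closely related copies may be assigned to one another, so single copies are uncertain to that extent.

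**Figure D3:**
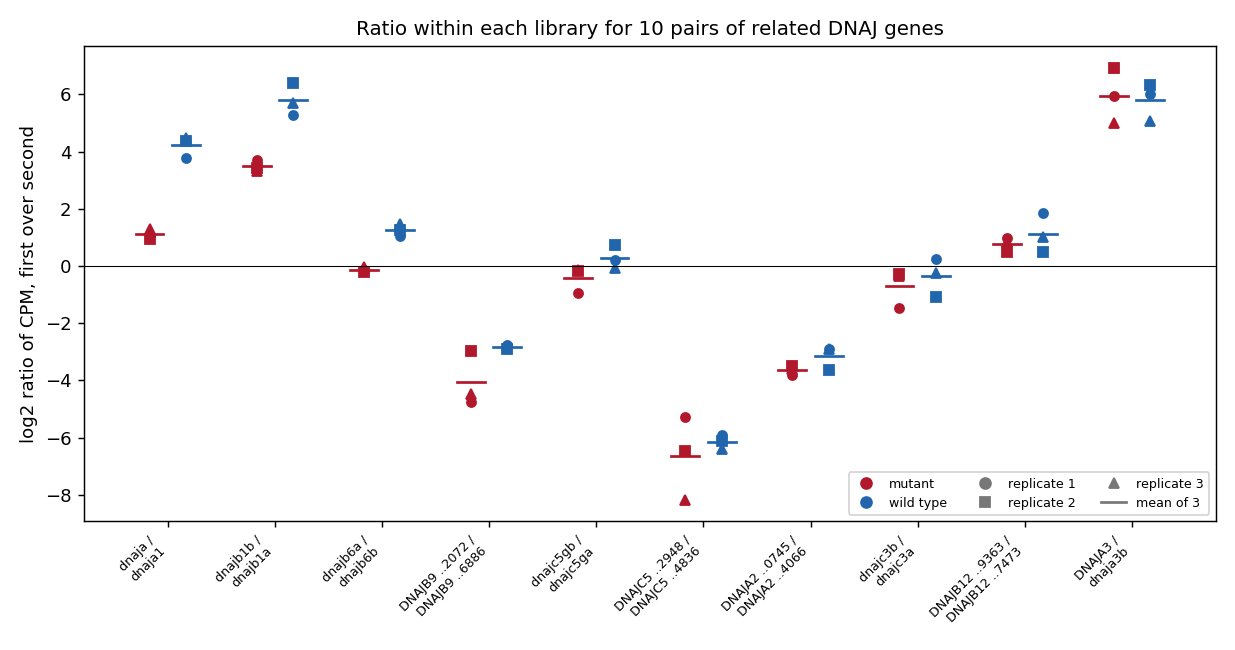
Log2 ratio of CPM between related DNAJ genes within each library (vertical axis) for 10 pairs, mutant in red left of wild type in blue, with the mean of 3 libraries as a line; genes that share a symbol are marked by the last 4 digits of their identifier. The gene of lower log2 fold change is first in each pair. The dnaja, dnajb1 and dnajb6 pairs at the left separate the genotypes, with mean differences of -3.11, -2.30 and -1.40.

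Class C, the largest class, had no called member. Of its 25 tested genes, 0 were called in either direction by edgeR or DESeq2. DESeq2 gave 12 of the 25, and 6415 of all 16499 tested genes, no adjusted p and so could not call them. Over all tested genes edgeR called 0.885% lower and 0.309% higher, and DESeq2 2.84% and 2.81%, so 0 of 25 is near those shares. At an unadjusted p below 0.05, 3 were lower and 3 higher, beside 7.17% and 7.04% of all tested genes. The summed level of class C was 615 ± 65.5 CPM in mutant and 580 ± 20.9 CPM in wild type macrophages, and the median log2 fold change of its tested genes was 0.12. In class A the median was -0.19, and in class B -0.70. The class B median includes the called genes dnajb6a and dnajb1b, DNAJB5 with its few counts, and DNAJB4, which met the count rule through wild type libraries only. Whether the classes differ was not tested.

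DNAJC12, which in humans assists the aromatic amino acid hydroxylases, was the class C gene furthest from 0. It had 10, 8 and 2 counts in mutant replicates 1, 2 and 3, against 30, 84 and 46 counts in wild type replicates 1, 2 and 3. In CPM this was 0.76 ± 0.50 in mutant and 7.91 ± 4.23 in wild type macrophages. The log2 fold change was -3.37 (SE 0.76, 95% interval -5.10 to -1.64), and it was not called (adjusted p = 0.0817, edgeR). DESeq2 gave it no adjusted p.

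DNAJC15, an inner mitochondrial membrane protein that restrains respiratory complex I in mammals, measured 3.91, 7.0 and 5.29 CPM in mutant replicates 1, 2 and 3, against 11.3, 13.7 and 8.67 CPM in wild type replicates 1, 2 and 3. The log2 fold change was -1.06 (SE 0.38, adjusted p = 0.258, edgeR). DNAJC21, which works in the maturation of large ribosomal subunits, measured 6.11, 8.23 and 7.84 CPM in mutant replicates 1, 2 and 3, against 5.33, 2.31 and 1.73 CPM in wild type replicates 1, 2 and 3. Its log2 fold change was 1.23 (SE 0.53, adjusted p = 0.341, edgeR). Neither gene overlapped between genotypes, and neither was called.

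DNAJC7, which binds both Hsp70 and Hsp90, had the most counts in class C. It measured 255, 213 and 182 CPM in mutant replicates 1, 2 and 3, against 156, 170 and 183 CPM in wild type replicates 1, 2 and 3. The groups overlapped at mutant replicate 3 and wild type replicate 3, and the log2 fold change was 0.35 (95% interval -0.01 to 0.72).

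By assigned site of action, the called members were all placed in the cytosol and nucleus, a group labelled general Hsp70 partners. The genes dnajb6a and dnajb2, described above by narrower roles, were placed in that group too. Of the 12 members placed there, 3 were called lower and 0 higher, where 0.885% of all tested genes were called lower and 0.309% higher. The median log2 fold change of the 12 was -0.99, beside -0.03 over all tested genes. That median includes the 3 called genes and DNAJB4, which met the count rule through wild type libraries only. The sites were assigned from textbook knowledge after the values were seen, without protein sequences. A site shared by the called members is therefore not an independent result. For the other sites, given below, 0 calls among so few members is near the share of all tested genes called. At each of them DESeq2 gave some members no adjusted p and so could not call those. The unadjusted counts below stand beside 7.17% of all tested genes lower and 7.04% higher at a p below 0.05.

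Of 12 members of the endoplasmic reticulum, 0 were called by edgeR or DESeq2, with 0 lower and 1 higher at an unadjusted p below 0.05. Their summed level was 275 ± 7.79 CPM in mutant and 280 ± 28.6 CPM in wild type macrophages. DNAJB11, a lumenal partner of the Hsp70 protein HSPA5, measured 99.1, 85.5 and 71.7 CPM in mutant replicates 1, 2 and 3, against 81.7, 111 and 84.9 CPM in wild type replicates 1, 2 and 3. The groups overlapped, and its log2 fold change of -0.11 (95% interval -0.55 to 0.33) changed sign without mutant replicate 3 or wild type replicate 2. The gene of DNAJC1, an endoplasmic reticulum membrane protein, was the one at an unadjusted p below 0.05, at 39.5 ± 7.39 CPM in mutant and 24.8 ± 4.79 CPM in wild type macrophages (adjusted p = 0.261, edgeR).

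For dnajc3a and dnajc3b, which encode inhibitors of the stress kinase PERK, log2 fold changes were 0.20 (95% interval -0.41 to 0.82) and -0.08 (95% interval -0.74 to 0.58). DNAJB9 (ENSDARG00000016886), a repressor of the stress sensor IRE1, had 0.26 (95% interval -0.49 to 1.01), and its second copy (ENSDARG00000052072) measured 0.86 ± 0.58 CPM in mutant and 1.47 ± 0.34 CPM in wild type macrophages. The membrane proteins of the DNAJB12 genes and DNAJB14, and DNAJC10, DNAJC16 and dnajc18, had log2 fold changes of -0.78 to 0.27 with intervals that included 0.

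The partners of these proteins did not all behave alike. Of 26 tested partner and stress genes of this compartment, 2 were called lower and 0 higher, beside 0.885% and 0.309% of all tested genes. At an unadjusted p below 0.05, 3 were lower and 1 higher, beside 7.17% and 7.04%. DESeq2 called 3 lower and 0 higher, beside 2.84% and 2.81%. It gave no adjusted p to 6415 of all 16499 tested genes and to 1 of the 26. HSPA5, the Hsp70 protein of the endoplasmic reticulum, fell 2.17-fold, to 2995 ± 78.1 CPM in mutant against 6502 ± 2281 CPM in wild type macrophages (adjusted p = 0.0438, edgeR). CALR, a lectin chaperone gene, fell 1.82-fold (adjusted p = 0.0457, edgeR). The HSPA5 call was lost without mutant replicate 1 (0.130), mutant replicate 2 (0.148), mutant replicate 3 (0.141) or wild type replicate 3 (0.100), and that of CALR without any 1 library (0.108 to 0.167). HSP90B1, at 821 ± 87.3 CPM in mutant and 1428 ± 313 CPM in wild type macrophages, was called lower by DESeq2 (adjusted p = 0.000421) but not by edgeR (adjusted p = 0.0613). The median log2 fold change of the 26 genes was 0.05.

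Mitochondrial members were 6 in number, and 0 were called by edgeR or DESeq2, with 1 lower (DNAJC15) at an unadjusted p below 0.05. DNAJC19, of the protein import motor, measured 3.59 ± 0.44 CPM in mutant and 3.30 ± 1.57 CPM in wild type macrophages. Both DNAJC11 (ENSDARG00000011196), of the cristae organising machinery, and dnajc30b had intervals that included 0. HSPA9, the Hsp70 protein of mitochondria, measured 351 ± 15.8 CPM in mutant and 399 ± 43.9 CPM in wild type macrophages (log2 fold change -0.18, adjusted p = 0.611, edgeR), and its exchange factor GRPEL1 had a log2 fold change of 0.34 (adjusted p = 0.590, edgeR). Of 18 tested mitochondrial partners, 0 were called by edgeR, beside 0.885% of all tested genes called lower and 0.309% higher. At an unadjusted p below 0.05, 3 were lower and 2 higher, beside 7.17% and 7.04%. DESeq2 called 3 lower and 1 higher, beside 2.84% and 2.81%. It gave no adjusted p to 6415 of all 16499 tested genes and to 1 of the 18.

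Vesicle and coat members were likewise uncalled, 0 of 5 by either tool, with 1 lower and 1 higher at an unadjusted p below 0.05. DNAJC5 (ENSDARG00000004836), the cysteine string protein of secretory vesicles, was at 142 ± 14.3 CPM in mutant and 185 ± 27.6 CPM in wild type macrophages (log2 fold change -0.38, 95% interval -0.74 to -0.01, adjusted p = 0.335, edgeR). The gene dnajc5ga stood at 27.4 ± 7.58 CPM in mutant and 14.1 ± 4.54 CPM in wild type macrophages (log2 fold change 0.96, adjusted p = 0.243, edgeR), and dnajc5gb had a log2 fold change of 0.28. The second DNAJC5 gene (ENSDARG00000042948) was rare, at 1.89 ± 1.47 CPM in mutant and 2.61 ± 0.17 CPM in wild type macrophages. DNAJC6, an uncoating factor of clathrin vesicles, was rare, at 1.54 ± 1.08 CPM in mutant and 2.93 ± 1.49 CPM in wild type macrophages. Its broadly expressed relative GAK measured 103 ± 21.3 CPM in mutant and 54.0 ± 21.8 CPM in wild type macrophages, the groups did not overlap, and it was not called (log2 fold change 0.93, adjusted p = 0.189, edgeR). Of 8 tested clathrin partners, which include GAK, 0 were called by edgeR, beside 0.885% of all tested genes called lower and 0.309% higher. At an unadjusted p below 0.05, 0 were lower and 3 higher, beside 7.17% and 7.04%. DESeq2 called 0 lower and 1 higher, beside 2.84% and 2.81%.

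Of 5 members acting on splicing, histones or ribosomes, 0 were called by either tool, with 1 higher (DNAJC21) at an unadjusted p below 0.05. The splicing factor gene dnajc8 measured 20.1 ± 1.15 CPM in mutant and 15.8 ± 2.22 CPM in wild type macrophages (log2 fold change 0.35, 95% interval -0.21 to 0.91). DNAJC9, a histone co-chaperone, had a log2 fold change of -0.87 (95% interval -2.16 to 0.41), and DNAJC2, which sits on the ribosome, -0.32 (95% interval -1.85 to 1.2). DNAJC17, another splicing protein, measured 1.87 ± 0.58 CPM in mutant and 1.53 ± 0.41 CPM in wild type macrophages. The remaining genes dnajc4, DNAJC25, DNAJC27 and DNAJC28 were uncalled, and DNAJC27 did not pass the filter of the test.

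**Figure D4:**
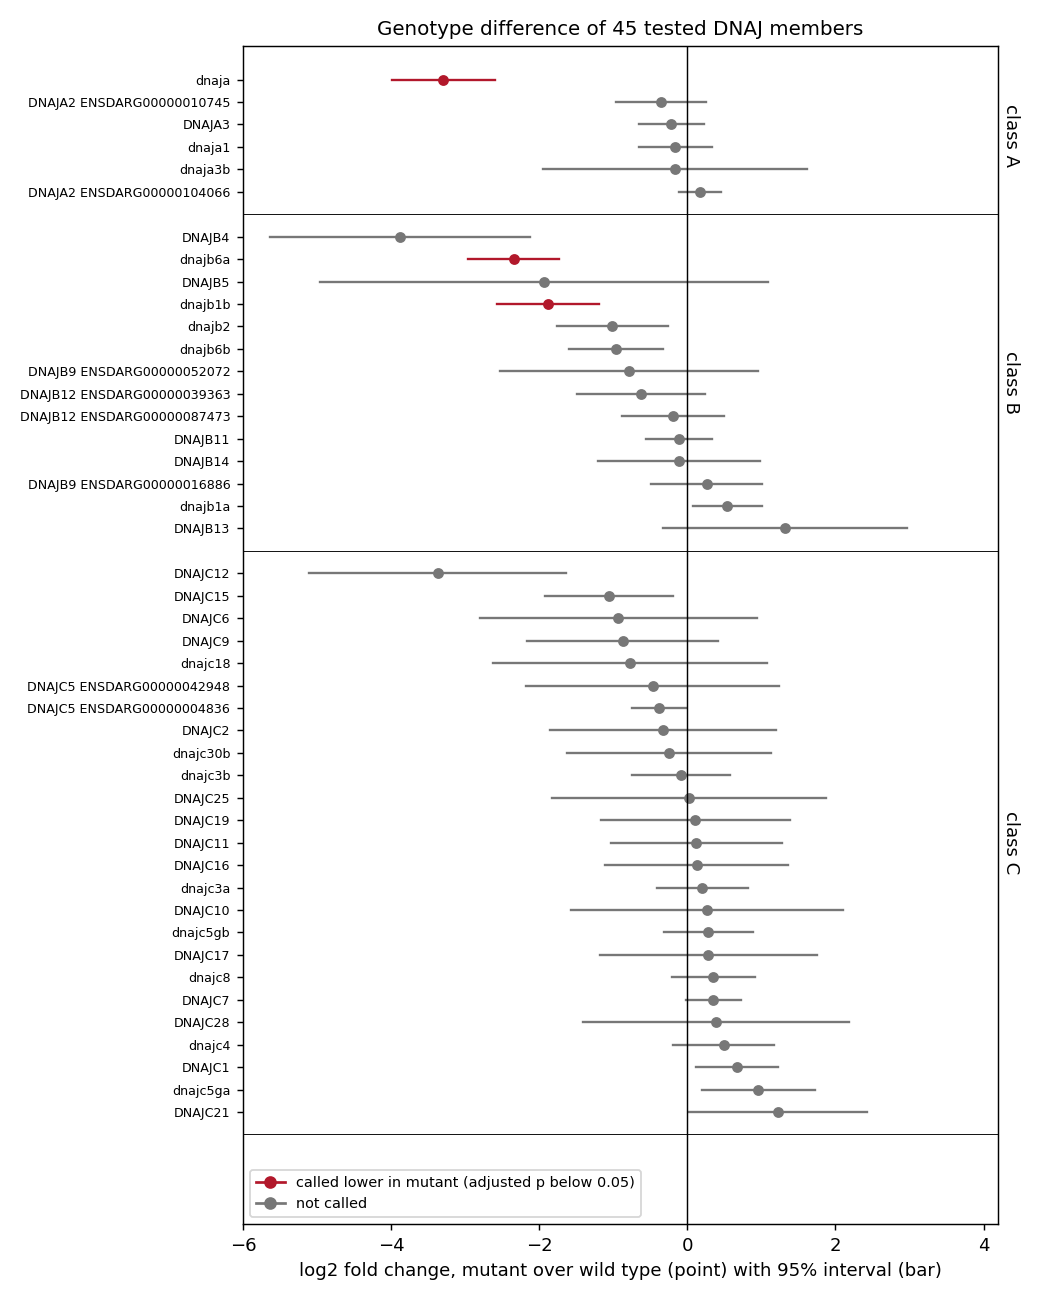
Log2 fold change of mutant over wild type (points) with its 95% interval (bars) for 45 tested DNAJ members, by class from top to bottom. The 3 called genes, in red, lie between -3.29 and -1.88, and the intervals of rare genes such as DNAJB5 span from -4.96 to 1.09.

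An uncalled gene is not thereby shown to be equal in the genotypes. Of the 42 uncalled members, 12 had a 95% interval within a 2-fold difference in both directions, and all 12 were among the 20 uncalled members with a mean of 10 CPM or more. None of the 22 with a lower mean had such an interval. Libraries of the genotypes did not overlap for 9 members lower in the mutant, where 10.4% of all tested genes did so. The same held for 7 members higher in the mutant, 15.6% of the 45, beside 10.2% of all tested genes. Just inside the count rule, DNAJB4, DNAJB5, dnaja3b, DNAJC27 and the second DNAJB9 gene (ENSDARG00000052072) reached 10 counts in 3 libraries, and just outside it DNAJC24 reached 10 counts in 2 libraries, with 22, 9 and 0 counts in mutant replicates 1, 2 and 3 and 13, 3 and 6 counts in wild type replicates 1, 2 and 3. The other symbols outside it were DNAJC22, DNAJC5B and second genes named DNAJC16 and DNAJC11.

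Members were then set beside the heat shock genes they work with. A list of 49 chaperones, Hsp70 and Hsp90 co-factors and heat shock factors without DNAJ genes was drawn up with earlier results of these libraries known. This list shares HSPD1 and HSPE1 with the mitochondrial partners above. Of its 45 tested genes, 18 were called lower and 0 higher by edgeR, beside 0.885% and 0.309% of all tested genes. At an unadjusted p below 0.05, 25 were lower and 2 higher, beside 7.17% and 7.04%. DESeq2 called 23 lower and 0 higher, beside 2.84% and 2.81%. It gave no adjusted p to 6415 of all 16499 tested genes and to 4 of the 45. Among those of lowest p, STIP1, which links Hsp70 to Hsp90, fell 7.87-fold and HSPH1, an exchange factor of Hsp70, 30.1-fold (adjusted p = 0.00111 and 0.00114, edgeR). The constitutive Hsp70 gene HSPA8 (ENSDARG00000068992) measured 9411 ± 548 CPM in mutant and 10105 ± 1480 CPM in wild type macrophages and was not called (log2 fold change -0.10, adjusted p = 0.776, edgeR). A second gene named HSPA8 (ENSDARG00000037403) fell to 4.42 ± 3.7 CPM in mutant, against 54.5 ± 36.5 CPM in wild type macrophages (adjusted p = 0.0431, edgeR), a call kept only without wild type replicate 1 (0.0446) and lost without each other library (0.0535 to 0.171).

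The wild type libraries also differed among themselves in these genes, and the DNAJ members were set beside them in this respect. The 49 listed genes summed to 31345, 32022 and 34623 CPM in mutant replicates 1, 2 and 3, against 115213, 271252 and 147915 CPM in wild type replicates 1, 2 and 3. This sum was thus 2.06 times as high in wild type replicate 2 as in the mean of the other wild type libraries. Gene by gene, the median of this ratio was 1.34 over the 45 tested genes of the list. The same ratio was 2.17 for dnajb1b, 1.82 for dnaja and 1.57 for dnajb6a, while over all tested genes its median was 0.99 and its range from the 5th to the 95th percentile was 0.36 to 2.45. All 3 members lie inside that range.

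Wild type replicate 2 was the highest wild type library for 19 of 45 tested members, beside 34.0% of all tested genes. It was also highest for 27 of 45 tested heat shock partner genes and for 16 of 20 macrophage markers. A member highest there is therefore not shown to vary with heat shock genes in particular. Among DNAJ members by class, replicate 2 was highest for 3 of 6 tested genes of class A, 10 of 14 of class B and 6 of 25 of class C. Of the 9 members whose libraries did not overlap in the lower direction, 8 were highest there, beside 41.1% of all 1714 tested genes of that kind. They include DNAJB4, which met the count rule through wild type libraries only, and the exception was DNAJC5 (ENSDARG00000004836). Of the 7 in the higher direction, 1 was, dnajb1a, beside 29.6% of all 1681 tested genes of that kind. The gene dnaja1 had a ratio of 1.54 among wild type libraries, with 134 CPM in wild type replicate 2 against 92.0 and 81.6 CPM in wild type replicates 1 and 3, but no genotype difference that was called. The median ratio was 1.14 in class A, 1.37 in class B and 0.91 in class C.

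**Figure D5:**
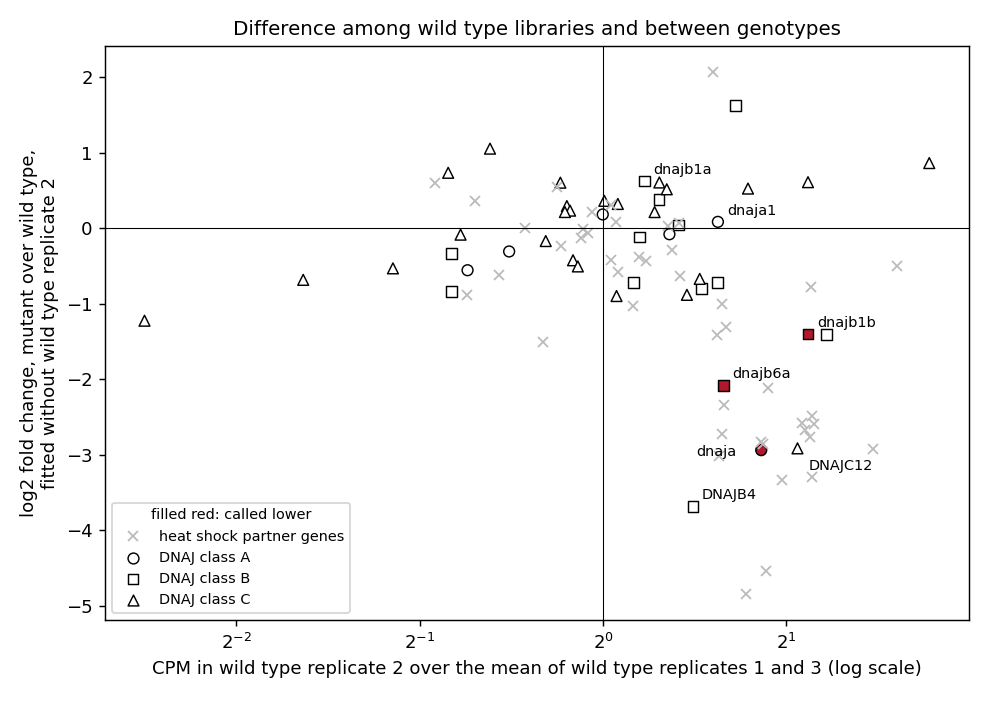
CPM in wild type replicate 2 over the mean of wild type replicates 1 and 3 (horizontal, log scale) against the log2 fold change of mutant over wild type fitted without wild type replicate 2 (vertical), for DNAJ members (black outlines, called genes filled red) and heat shock partner genes (grey crosses). Both axes use wild type replicates 1 and 3; dnaja, dnajb6a and dnajb1b lie at ratios of 1.57 to 2.17 among the lower partner genes, and dnaja1 and dnajb1a lie at 0.09 and 0.63 on the vertical axis.

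The genotype difference of the 3 called members was present without the library highest in heat shock transcripts. The remaining wild type replicates 1 and 3 still held 115213 and 147915 CPM of the 49 listed heat shock genes, against 31345 to 34623 CPM in mutant libraries. Leaving out wild type replicate 2 thus does not remove the heat shock difference between genotypes. Without wild type replicate 2 the log2 fold changes were -2.94 for dnaja, -2.08 for dnajb6a and -1.40 for dnajb1b, and each was called. No label gives a date or a sorting session, so a difference between handling of the pools and a difference between genotypes cannot be told apart for these genes.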

How the data were processed

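Sorted macrophages of cxcr3.2 mutant and wild type larvae were compared, 3 libraries each, grouped by the sample titles. The authors deposited raw read counts per Ensembl gene, unnormalized. Per the labels' protocols, single reads were aligned to GRCz10 after low-input cDNA amplification, with Bowtie and TopHat listed in the submitters' processing notes. How reads were counted, and whether by strand, is not given in the sources used here. Amplification without molecular identifiers adds noise that counts cannot separate from biology. No label says that replicate numbers pair libraries.

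Symbols came from a table naming 26121 of 31962 IDs, and 1 blank line was skipped. The analysis used edgeR 4.0.16 under R 4.3.3: filterByExpr (minimum count 10), TMM scaling, glmQLFit and glmQLFTest on genotype alone, two-sided, Benjamini-Hochberg adjustment over 16499 genes. The SE is the log2 fold change divided by the root of F, and intervals are 95%. Libraries of one group differed from each other by more than sampling noise (lowest chi-square per gene 18.3). P-values rest on the spread between libraries, which holds that between pools and that of amplification together (common biological coefficient of variation 0.441). The fit was tested on simulated counts. DESeq2 1.42.0, other scalings and filters, a replicate block and leaving out each library were tried.

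Members and lists were chosen with earlier results of these data known. Values are given per library for members called, for members 2-fold apart whose libraries do not overlap, and for the uncalled member of most counts per class. The genes dnaja1, dnajb1a, dnajb6b, DNAJB5, DNAJC1, the overlapping genes and others beyond this rule were named after their values were seen. Sequence features planned for proteins and promoters were not analysed here.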

Additional observations from a re-analysis of the deposited data

How the results depend on the processing

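Of the family results, 3 members were called lower with every other scaling and count filter, 4 with DESeq2 and 2 to 3 with 1 library left out, and 0 were higher under any alternative. The calls of dnaja and dnajb6a were kept throughout. With the replicate number as a block, 2 members and, over all genes, 84 lower and 13 higher were called, and dnajb1b missed the threshold (adjusted p = 0.050003). Same-numbered libraries did not deviate together (correlations -0.03, 0.0024 and -0.03). With so few libraries per group, this cannot show whether same-numbered pools shared a sort or a date. The family's median log2 fold change was -0.17 to -0.0905 with 1 library left out. Over all genes, 43 to 98 were lower and 3 to 11 higher with 1 library left out, against 146 and 51 with all. DESeq2 called 468 lower and 463 higher, and a filter at a mean of 10 CPM 322 lower and 166 higher. DNAJB11 changed sign without mutant replicate 3 (0.0037) or wild type replicate 2 (0.0445), within a range of -0.23 to 0.0445 with 1 library left out. Wild type replicate 2 was highest for 18 members under each other scaling, against 19. The cause of these changes was not tested. At these depths the intervals of all 22 tested members with a mean below 10 CPM, and of 8 of the 20 uncalled members above it, exceed a 2-fold difference, and the parts of depth and of spread between libraries were not told apart. Promoter and protein features were not run.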
